A study of Mus musculus with 20 samples.

Results

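The genes described here are 9 members of the CC chemokine system that guides monocytes out of the blood and into inflamed or tumour tissue. They are the ligand genes Ccl2, Ccl7, Ccl8, Ccl12, Ccl3, Ccl4 and Ccl5 and the receptor genes Ccr1 and Ccr2. They were taken by name from the 52783 mouse genes of the count table, after Ensembl identifiers had been matched to gene symbols, and all 9 were found and passed the filter on low counts in every comparison. The RNA came from 10 female BALB/cJ mice, 5 carrying a 66cl4 tumour and 5 a 67NR tumour in the mammary fat pad. Both cell lines belong to the 4T1 family of mouse mammary cancer, in which 66cl4 tumours metastasise and 67NR tumours do not. Each tumour was dissociated and sorted on CD45, a surface protein of leukocytes, into a CD45+ and a CD45- library, which gave 5 libraries in each of 4 groups. The mice were young adults, tumours were taken some weeks after injection of the cells, and the labels name no engineered allele and no drug. Each model is 1 transplanted cell line, so a difference between the tumours is a difference between these 2 lines as grown in this strain. The CD45- cells are a mixture of cancer cells with stromal and vascular cells.

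CC chemokines are small secreted proteins that bind to seven-helix receptors coupled to Gi proteins and draw cells along their gradient. Ccr2 is the receptor through which inflammatory monocytes leave the bone marrow and enter tumours, and Ccl2, Ccl7 and Ccl12 encode its ligands. Ccl8 belongs to the same monocyte chemoattractant subfamily, although its mouse product is known as a ligand of Ccr8. Ccl3, Ccl4 and Ccl5 encode further inflammatory chemokines, of which the products of Ccl3 and Ccl5 bind Ccr1.

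Total counts per library ranged from 12960000 to 28080314. Levels are given as normalised counts, which are estimated counts divided by the size factor of the library. The titles of the 66cl4 libraries of animals 5 and 6 disagree with their recorded cell types, so the titles were used and the fold changes and calls of the 9 genes were also computed without this pair of animals. Ptprc, the gene of CD45, was higher in the CD45+ than in the CD45- library for 5 of 5 animals of each tumour. None of the 20 values of Ccl2, Ccl7, Ccl8, Ccl12, Ccl3, Ccl4 and Ccl5 contained a fraction of a read. All 20 values of Ccr2 did, and 2 of those of Ccr1, because the estimation divides a read that matches several transcripts, so the receptor values can hold reads of a similar gene.

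In CD45+ cells the comparison of the tumours asks whether immune cells of the metastatic tumour carried other levels of these transcripts than those of the non-metastatic tumour. Ccl8 and Ccl5 were lower in 66cl4 tumours, by 17.5-fold and 5.19-fold of the group means, and the other 7 genes did not pass the thresholds. To be called, a gene needed an adjusted p under 0.05 in edgeR's quasi-likelihood test together with a log2 fold change beyond 1 in either direction. By this rule 2 of the 9 genes were called, both lower in 66cl4, while 11.8% of all 14676 genes tested were called and 6.82% were called lower. The libraries of the tumours did not overlap for these 2 of the 9 genes, as for 15.1% of all genes. The median log2 fold change of the 9 genes was -0.07, beside 0.01 for all genes tested. In sorted populations, fewer cells of a type and less RNA per cell cannot be told apart.

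Among the monocyte chemoattractant genes, Ccl8 differed most. The 5 libraries of 66cl4 CD45+ cells had normalised counts of 611, 712, 888, 803 and 924. Those of 67NR tumours had 9068, 22848, 14464, 8478 and 14234. The groups were separated by a wide gap, with the lowest 67NR library far above the highest 66cl4 library. The log2 fold change was -4.12 (SE 0.281, 95% CI -4.73 to -3.51, adjusted p = 8.58e-06 in edgeR, n = 5 per group). Leaving out each library in turn gave values from -4.26 to -3.85, and the call held each time.

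Ccl12 lies next to Ccl8 on chromosome 11 among the protein-coding CC chemokine genes of the RefSeq annotation, in the order Ccl2, Ccl7, Ccl11, Ccl12, Ccl8 and Ccl1. Its normalised counts were 4648, 4781, 7964, 11115 and 5991 in 66cl4 and 9722, 7132, 13320, 10188 and 10434 in 67NR CD45+ cells. The groups overlapped, and the log2 fold change of -0.55 did not pass (SE 0.243, 95% CI -1.07 to -0.02, adjusted p = 0.132 in edgeR). The confidence intervals of the neighbours did not overlap. The 250 bases before the start of each gene are shown for these neighbours, from RefSeq on GRCm38.p6, at chr11:82114935-82115184 for Ccl8 and chr11:82101595-82101844 for Ccl12, both on the plus strand and 5′ to 3′. Capitals mark matches to TATAAA and to GAGGAA, a sequence that ETS factors can bind. The latter appears as its reverse complement where it lies on the minus strand. Other forms of the ETS site were not searched and are not marked.
Ccl8: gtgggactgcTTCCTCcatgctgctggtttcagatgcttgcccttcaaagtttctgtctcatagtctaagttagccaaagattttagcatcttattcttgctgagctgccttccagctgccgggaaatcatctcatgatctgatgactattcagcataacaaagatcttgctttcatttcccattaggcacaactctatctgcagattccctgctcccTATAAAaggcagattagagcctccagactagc
Ccl12: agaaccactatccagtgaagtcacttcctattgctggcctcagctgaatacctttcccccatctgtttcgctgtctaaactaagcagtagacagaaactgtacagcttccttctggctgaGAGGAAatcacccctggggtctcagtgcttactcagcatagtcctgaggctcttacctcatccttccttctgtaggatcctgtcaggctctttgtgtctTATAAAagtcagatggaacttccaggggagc
TATAAA began 32 bases before the start of Ccl8 and 31 bases before that of Ccl12. A match to these letters on either strand was found in the same window of 12.4% of 32851 promoters. The GAGGAA match lay at -240 to -235 in Ccl8, on the minus strand, and at -130 to -125 in Ccl12, on the plus strand, and 23.3% of promoters held one. Neither the kappaB consensus nor the AP-1 motif TGANTCA was present in these windows, as against 7.25% and 6.75% of promoters. These motifs did not overlap one another. Of the 9 genes, 5 had a promoter in the table used, and Ccl2, Ccl7, Ccl4 and Ccl5 are named only.

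Ccl2 encodes the main chemoattractant of Ccr2-bearing monocytes. In CD45+ cells its normalised counts were 7018, 5946, 10797, 16141 and 6841 in 66cl4 and 5536, 5445, 7489, 7253 and 5812 in 67NR tumours. The ranges overlapped, and animals 5 and 6 held the highest 66cl4 values. The log2 fold change was 0.58 (SE 0.252, 95% CI 0.03 to 1.13, adjusted p = 0.123 in edgeR), and it was 0.07 without animals 5 and 6. Ccl7, the gene beside it, ranged from 4179 to 11405 in 66cl4 and from 5132 to 8670 in 67NR CD45+ cells. Its log2 fold change of 0.05 had a 95% CI of -0.54 to 0.65, which leaves out a change of 2-fold in either direction.

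Among Ccl3, Ccl4 and Ccl5, the last, a chemokine made by T cells, NK cells and macrophages, was the one called. It had 1349, 1711, 1290, 1342 and 1330 normalised counts in the 66cl4 libraries. The 67NR libraries had 2209, 6322, 7662, 8672 and 11558. The groups did not overlap, and the 67NR library of animal 1 lay well below the other 4 of its group. The log2 fold change was -2.34 (SE 0.328, 95% CI -3.06 to -1.62, adjusted p = 0.000725 in edgeR), with values from -2.60 to -2.14 when each library was left out.

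Ccl3, a macrophage inflammatory protein, had normalised counts of 12148, 5312, 11506, 10233 and 5682 in 66cl4 and 6086, 6067, 4909, 4726 and 5642 in 67NR CD45+ cells. Of the 66cl4 libraries 3 stood above all 67NR libraries and 2 lay among them. The log2 fold change of 0.72 had an adjusted p of 0.0429 in edgeR but fell short of the fold threshold. Ccl4, its close relative, ranged from 2214 to 6614 in 66cl4 and from 2449 to 5976 in 67NR cells, with a log2 fold change of -0.10 (95% CI -0.84 to 0.63).

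Of the receptors, Ccr1 had normalised counts of 20224, 10763, 22030, 23806 and 13155 in 66cl4 CD45+ cells and 13546, 9666, 10655, 10196 and 8898 in 67NR CD45+ cells. The ranges overlapped in the middle, and the log2 fold change was 0.77 (SE 0.223, 95% CI 0.28 to 1.25, adjusted p = 0.0285 in edgeR), below the fold threshold. Without 66cl4 animals 5 and 6 it was 0.47. Ccr2 had 22166, 12607, 17885, 22228 and 12201 in 66cl4 and 16802, 13838, 21506, 21687 and 18220 in 67NR CD45+ cells. The groups overlapped almost fully and the log2 fold change was -0.07 (95% CI -0.50 to 0.37). The ratio of Ccr2 to Ccr1, both as TPM (transcript level scaled for length and library size), was 0.859 ± 0.125 in 66cl4 and 1.54 ± 0.354 in 67NR CD45+ cells (SD, n = 5). Its ranges of 0.706 to 1.02 and 1.08 to 1.85 came close without overlapping. In CD45- cells the ratio was 0.768 ± 0.246 in 66cl4 and 0.821 ± 0.282 in 67NR. How many other pairs of genes have ratios that do not overlap was not computed.

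Ccr1 and Ccr2 also lie in 1 group of receptor genes on chromosome 9, and their promoters are shown. Both promoters are reference sequences, so they hold no difference between the tumours. They are the 250 upstream bases at chr9:123968693-123968942 on the minus strand for Ccr1 and chr9:124101933-124102182 on the plus strand for Ccr2, in RefSeq on GRCm38.p6, each written 5′ to 3′ along its gene.
Ccr1: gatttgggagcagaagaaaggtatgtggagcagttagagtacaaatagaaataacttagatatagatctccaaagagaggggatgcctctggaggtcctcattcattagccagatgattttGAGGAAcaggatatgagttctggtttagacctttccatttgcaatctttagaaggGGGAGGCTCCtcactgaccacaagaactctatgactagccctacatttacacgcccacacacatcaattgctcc
Ccr2: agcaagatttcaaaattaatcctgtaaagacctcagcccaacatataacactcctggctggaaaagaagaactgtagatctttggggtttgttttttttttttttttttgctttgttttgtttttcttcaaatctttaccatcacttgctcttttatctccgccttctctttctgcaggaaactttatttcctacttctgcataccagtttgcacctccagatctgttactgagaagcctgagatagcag
Capitals in Ccr1 mark the GAGGAA match at -129 to -124 and a match to the kappaB consensus at -74 to -65. None of the 4 motifs searched was found in the Ccr2 window.

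**Figure D1:**
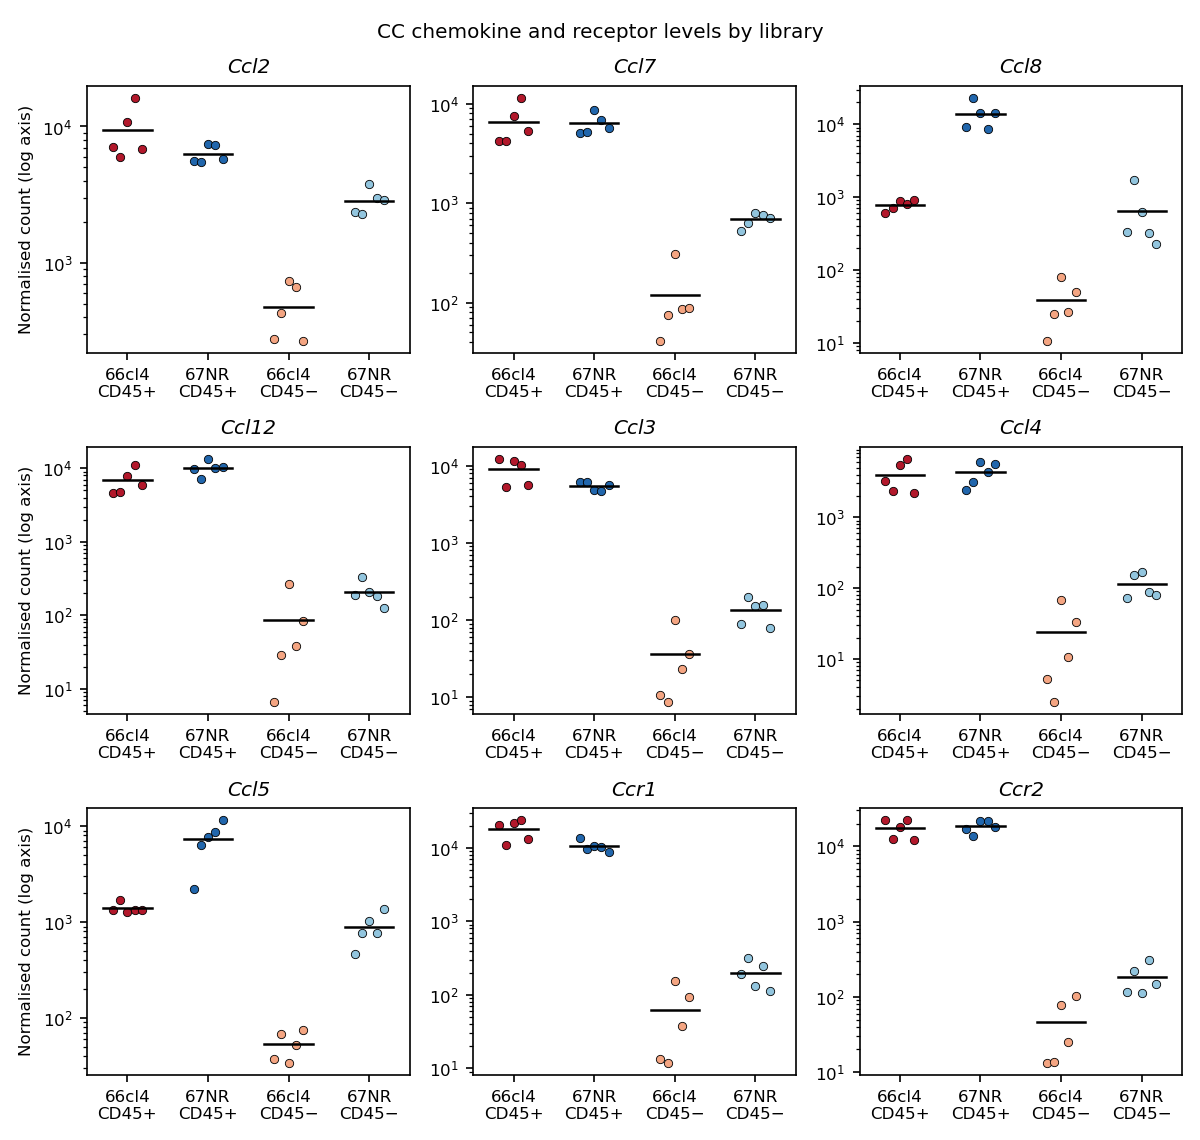
Normalised counts of the 9 genes in each library (points, log axis) with the group mean (black line), for CD45+ and CD45- cells of 66cl4 and 67NR tumours, 5 animals each. Ccl8 and Ccl5 are the genes whose CD45+ libraries separate by tumour, and every gene is lower in the CD45- than in the CD45+ libraries of its tumour.

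Markers of other immune cells moved with the tumour in the CD45+ libraries. Of the NK cell markers, 4 of 4 tested were lower in 66cl4 (Klrb1c -2.71, Klre1 -2.63, Ncr1 -2.51 and Eomes -2.07 in log2 fold change), and their summed level was 19.1 to 64.4 TPM in 66cl4 against 39.8 to 487 TPM in 67NR. The lowest of the 67NR sums, 39.8 TPM, belonged to animal 1, which was also lowest in Ccl5. This was not particular to NK cell markers. Animal 1 also had the lowest 67NR sums of T cell, B cell, dendritic cell, macrophage and mast cell markers, and the highest of neutrophil markers. By edgeR 0 of the 8 T cell markers were called, as by DESeq2, with 0 at an unadjusted p under 0.05, and their sums ran from 127 to 546 TPM in 66cl4 and from 115 to 492 TPM in 67NR. The macrophage markers summed to 2720 to 4401 TPM in 66cl4 and 4630 to 8338 TPM in 67NR, with 3 of 12 lower (Ms4a7, Apoe and Adgre1) and 1 higher (Trem2). Of the monocyte markers 3 of 10 were higher (Fn1, Vcan and Nr4a1) and 3 lower (Plac8, Ly6c2 and Ms4a4c), and of the neutrophil markers 5 of 9 tested were higher. Mast cell markers were lower for 3 of 4 and summed to 49.6 to 133 TPM in 66cl4 against 634 to 941 TPM in 67NR. In 66cl4 CD45+ cells 1 of the 5 NK cell genes was at 0 in all libraries, and no other gene of these lists was at 0 throughout a CD45+ group. The part of these markers in the differences of Ccl8 and Ccl5 was not tested.

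In CD45- cells the same comparison gave a broader difference. Of the 9 genes 7 were lower in 66cl4, against 32.2% of 14844 genes called and 18.9% called lower, and the median log2 fold change of the 9 was -2.20 beside -0.01 for all genes. Ptprc, which the sort should deplete here, was itself lower in 66cl4 CD45- cells, with 10.6, 26.2, 138, 40.4 and 161 normalised counts against 205, 473, 145, 332 and 178 in 67NR (log2 fold change -1.79, adjusted p = 0.0361 in edgeR). The values of animals 5 and 7 were the highest of the 66cl4 group, and that of animal 7 lay above the lowest of the 67NR group. Of the macrophage markers 6 of 11 tested were lower and 1 higher, and of the monocyte markers 5 of 8 were lower. The sums in CD45- cells were 15.3 to 118 TPM in 66cl4 and 86.5 to 326 TPM in 67NR for macrophages. No such sum is given for monocytes, because the CD45- level of the listed Fn1 was 76.4% of the CD45+ level in 66cl4 and 552% in 67NR, and that of Vcan was 308% in 67NR. The count of monocyte markers comes from the same list, so it does not measure monocytes alone. Mast cell markers summed to 0.553 to 2.43 TPM and 16.6 to 636 TPM, endothelial markers to 12.6 to 26.8 TPM and 23.3 to 99.6 TPM, and fibroblast markers to 428 to 873 TPM and 724 to 1371 TPM. Epithelial markers were higher in 66cl4 CD45- cells in sum, at 197 to 218 TPM against 4.84 to 15.1 TPM, with Krt8 and Krt18 called higher and Epcam called lower of 5 tested. The part of immune and stromal cells in the differences of the 9 genes was not tested.

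Ccl2 had the highest level of the 9 genes in CD45- cells of both tumours, as TPM. Its normalised counts were 276, 425, 732, 667 and 267 in 66cl4 and 2338, 2274, 3763, 3002 and 2873 in 67NR CD45- cells. Every 67NR library exceeded every 66cl4 library, by 6.02-fold in the group means. In log2 terms the change was -2.55 (SE 0.306, adjusted p = 2.55e-05 in edgeR).

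Ccl7 followed the same direction, with 41.1, 74.2, 306, 87.1 and 88.8 in 66cl4 and 526, 635, 802, 758 and 712 in 67NR CD45- cells. Animal 5 held the outlying 66cl4 value, and the fold between the means, 5.75, became 9.43 without it. In edgeR its log2 fold change was -2.47 (SE 0.462, adjusted p = 0.000925).

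Ccl8 had 10.6, 24.9, 79.1, 26.6 and 49.9 normalised counts in 66cl4 and 335, 1742, 626, 319 and 230 in 67NR CD45- cells. All 67NR values lay above the 66cl4 values, and animal 4 was far above the rest of its group. Its log2 fold change was -4.02 (SE 0.740, adjusted p = 0.00102 in edgeR), and the fold of 17.02 between the means became 9.88 without that library.

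Ccl5 had 37.2, 68.0, 34.1, 52.1 and 74.9 normalised counts in 66cl4 and 461, 767, 1038, 769 and 1366 in 67NR CD45- cells. The gap between the groups was 16.5-fold in the means, with a log2 fold change of -3.99 (SE 0.328, adjusted p = 8.46e-07 in edgeR), the smallest adjusted p of the 9 genes in this gate.

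Of the remaining 5 genes 3 were called. Ccl3 (log2 fold change -1.86, adjusted p = 0.0171 in edgeR), Ccl4 (-2.20, adjusted p = 0.0160) and Ccr2 (-1.92, adjusted p = 0.0139) were lower in 66cl4. Ccr2 had 13.3, 13.7, 77.4, 25.5 and 103 normalised counts in 66cl4 and 116, 223, 112, 308 and 147 in 67NR CD45- cells, and the groups came close without overlapping. Ccl12 (-1.23, 95% CI -2.89 to 0.44, adjusted p = 0.169) and Ccr1 (-1.64, 95% CI -3.13 to -0.15, adjusted p = 0.0514) were not called. Their 66cl4 values ranged from 6.64 to 269 and from 11.8 to 156, with the highest in animal 5 in both genes. Without that library Ccl12 was called at -2.33 (adjusted p = 0.00250 in edgeR) and Ccr1 at -2.32 (adjusted p = 0.00750), and the folds between the means moved from 2.42 to 5.25 for Ccl12, from 3.21 to 5.13 for Ccr1, from 3.75 to 6.77 for Ccl3 and from 4.76 to 8.81 for Ccl4. Without the CD45- libraries of 66cl4 animals 5 and 6 all 9 genes were called lower, in a fit that tested 15664 genes. Over the alternatives other than omission of single libraries, 4766 to 6775 of all genes were called in this gate. Libraries of the tumours did not overlap for 6 of the 9 genes, as for 53.2% of all genes tested, with Ccl12, Ccl3 and Ccr1 overlapping.

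The levels of CD45- cells were also divided by that of Ptprc in the same library, both as TPM. The median ratio of Ccr2 to Ptprc was 0.616 in 66cl4 and 0.760 in 67NR, and that of Ccr1 to Ptprc was 1.04 and 0.841. For Ccl2 the median ratio was 54.6 in 66cl4 and 38.3 in 67NR, with ranges of 5.58 to 87.5 and 16.2 to 87.4. Ccl8 and Ccl5 had a lower median ratio in 66cl4, at 4.14 against 10.3 and 6.91 against 12.4, but their ranges overlapped (1.95 to 6.29 against 6.04 to 27.2 for Ccl8, and 1.32 to 18.7 against 8.68 to 41.1 for Ccl5). No test was made of these ratios. Ptprc did not follow all leukocyte markers in these libraries. In 67NR CD45- cells it was 3.18 TPM in animal 7 and 9.07 TPM in animal 4. Mast cell markers summed to 636 and 25.1 TPM in these animals, and macrophage markers to 86.5 and 326 TPM.

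**Figure D2:**
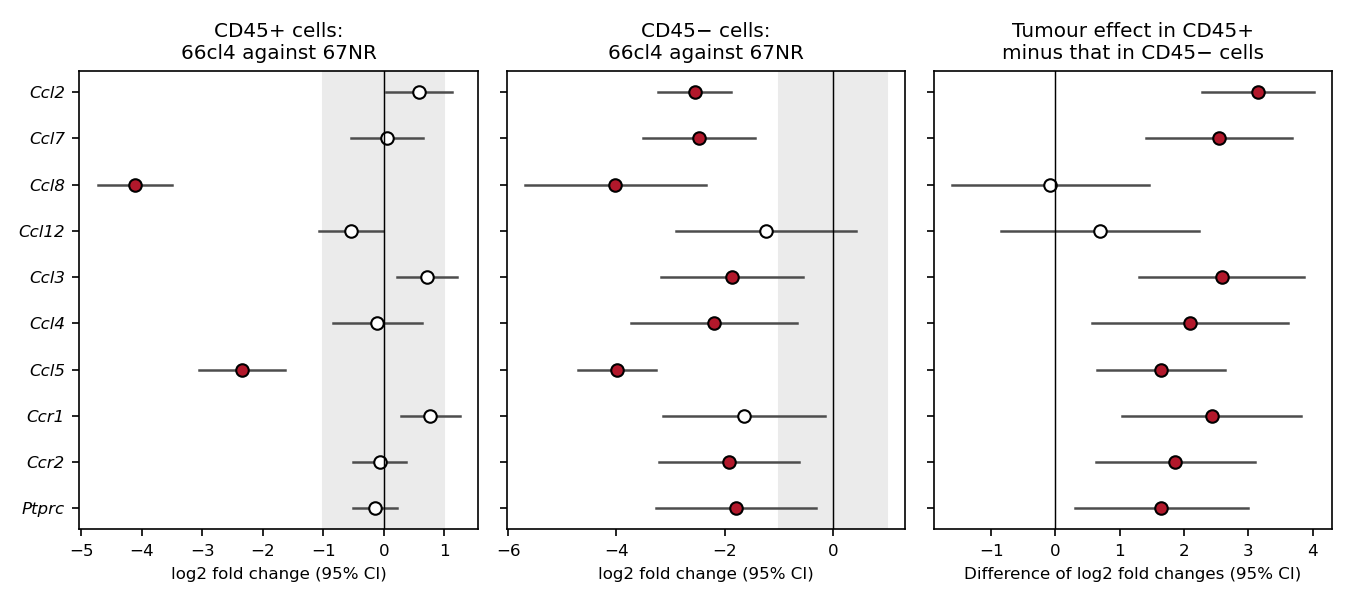
Log2 fold change between 66cl4 and 67NR tumours with its 95% confidence interval in CD45+ cells (left) and CD45- cells (middle), and the difference of these effects (right), for the 9 genes and Ptprc. Filled points passed the thresholds, and the shaded band spans a log2 fold change of -1 to 1. In CD45+ cells only Ccl8 and Ccl5 of these genes are filled, whereas in CD45- cells the open points are Ccl12 and Ccr1.

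An interaction term over all 20 libraries tested whether the tumours differed by another fold in one gate than in the other, at an adjusted p under 0.05. The tumour effect was higher in CD45+ than in CD45- cells for 7 of the 9 genes, while 43.1% of 16453 genes passed and 21.9% passed in this direction. The differences of log2 fold changes were 3.15 for Ccl2, 2.54 for Ccl7, 2.58 for Ccl3, 2.09 for Ccl4, 1.64 for Ccl5, 2.43 for Ccr1 and 1.87 for Ccr2. The interaction of Ptprc itself was 1.65 (adjusted p = 0.0450 in edgeR), beside 1.64 for Ccl5 and 1.87 for Ccr2. For Ccl8 the difference was -0.08 with a 95% CI of -1.61 to 1.45, and the gene was lower in 66cl4 by 17.5-fold in CD45+ and 17.02-fold in CD45- cells. The interaction of Ccl12 was 0.69 (95% CI -0.84 to 2.23) and did not pass. Ccl2 had the largest value of the 9. Its interval of 2.27 to 4.02 overlapped that of Ptprc, 0.30 to 2.99, and the difference between these genes was not tested.

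Within each tumour, the comparison of gates asks which compartment held each transcript. The edgeR fits used here, like that of the interaction, did not pair the libraries of an animal. All 9 genes were higher in CD45+ cells in both tumours, where 44.4% of 14916 genes in 66cl4 and 39.8% of 15063 genes in 67NR were called. Of all genes tested, 23.9% and 20.2% were called higher and 20.5% and 19.6% lower. Each gene was higher in the CD45+ library in 5 of 5 animals of each tumour, and its groups did not overlap, as for 61.7% of all genes in 66cl4 and 55.5% in 67NR. The log2 fold changes spanned 4.27 (Ccl2) to 8.51 (Ccr2) in 66cl4 and 1.142 (Ccl2) to 6.66 (Ccr2) in 67NR tumours, beside 7.98 and 6.35 for Ptprc. These comparisons use the same libraries as those between tumours and are not independent of them.

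The size of the gate difference varied among the genes. In 67NR tumours the mean level in CD45- cells was 45.2% of that in CD45+ cells for Ccl2, 12.1% for Ccl5, 10.8% for Ccl7 and 4.71% for Ccl8, while Ptprc stood at 1.22% and the median of 54 immune markers at 2.21%. The share of Ccl2 in single animals was 41.4 to 50.2%. Of these 54 markers 3, namely Fn1, Vcan and Nr4a1, had a larger share than Ccl2. A larger share than each of Ccl5, Ccl7 and Ccl8 was held by 11 of the 54. These included the 4 mast cell markers, at 22.4 to 35.1%. In 66cl4 tumours the shares were 5.06% for Ccl2, 4.85% for Ccl8, 3.79% for Ccl5 and 1.83% for Ccl7, with Ptprc at 0.386% and the markers at a median of 0.740%. Here 6 of 54 markers had a larger share than each of Ccl2, Ccl8 and Ccl5. The shares of Ccr2, 0.983% in 67NR and 0.267% in 66cl4, were below that of Ptprc in both tumours, and those of Ccl3 and Ccl4 ranged from 0.400 to 2.61%. The 67NR share of Ccl8 was moved most by the CD45- library of animal 4. Omission of this library alone raised the ratio of CD45+ to CD45- cells from 21.2 to 36.6. Omitting the CD45- library of 66cl4 animal 5 raised this ratio in 66cl4 tumours from 54.7 to 89.6 for Ccl7, from 80.9 to 175 for Ccl12, from 249.96 to 451 for Ccl3, from 168 to 310.1 for Ccl4 and from 289 to 461 for Ccr1.

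**Figure D3:**
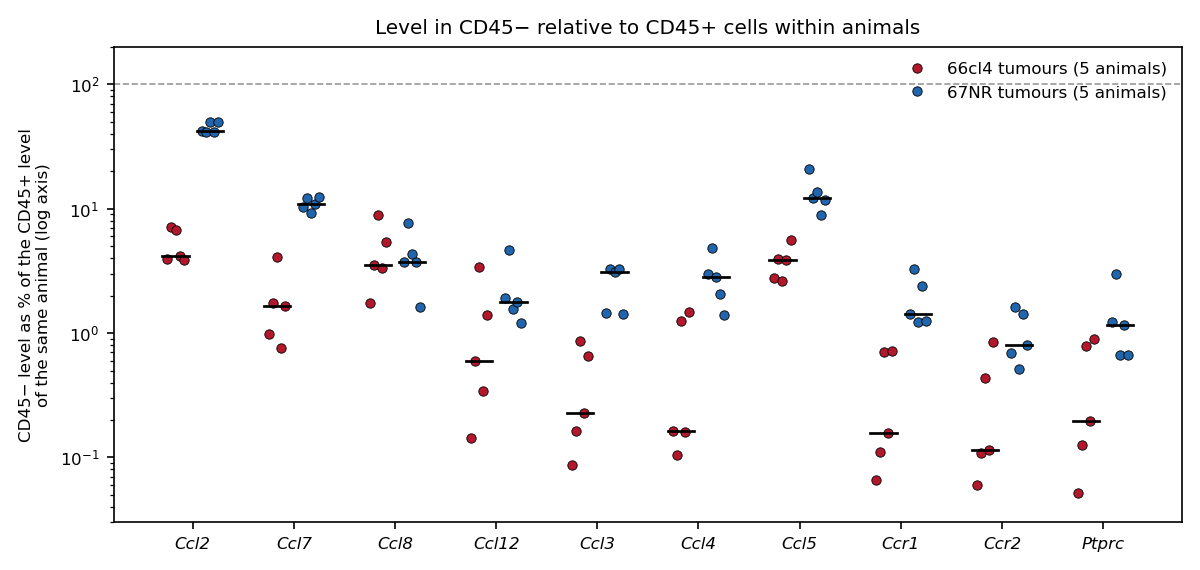
Level in the CD45- library as a percentage of the CD45+ library of the same animal (log axis) for the 9 genes and Ptprc, with 5 animals per tumour as points and their median as a line. The dashed line marks equal levels. Ccl2 of 67NR tumours lies nearest to it, at 41.4 to 50.2%, and the lowest 66cl4 values are those of Ptprc (0.0518%), Ccr2 (0.0599%) and Ccr1 (0.0656%).

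The 4 groups were also put in order for each gene and neighbours in that order were compared with two-sided exact permutation tests, adjusted over 27 pairs. Of these pairs, 18 differed at an adjusted p under 0.05, and the smallest exact p that 5 libraries against 5 allow is 0.00794. The CD45+ groups of the tumours were neighbours in the order of every gene but could be set apart for Ccl8, Ccl5 and Ccr1 alone. For Ccl8 the 66cl4 CD45+ cells (mean 787) and 67NR CD45- cells (mean 650.4) did not differ beyond their spread (exact permutation p = 0.706). The test included the outlying 67NR CD45- library of animal 4, at 1742 normalised counts. The others of that group had 230 to 626, beside 611 to 924 in 66cl4 CD45+ cells. For Ccl5 these groups had means of 1404 and 880.2 (exact permutation p = 0.0397, adjusted p = 0.0564). The CD45- groups of Ccl12 could not be separated either (exact permutation p = 0.0635).

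Levels of different genes can be compared only per transcript length, as TPM. Among the 9 genes, 66cl4 CD45+ cells held most Ccl12 (mean 723 TPM), then Ccl3 (630.2), Ccl2 (519), Ccl7 (432), Ccr1 (340.5), Ccl4 (319), Ccr2 (288), Ccl5 (129) and Ccl8 (84.4). In 67NR CD45+ cells the order was Ccl8 (1504 TPM), Ccl12 (1105), Ccl5 (685), Ccl7 (439.8), Ccl3 (396), Ccl2 and Ccl4 (both 367), Ccr2 (314) and Ccr1 (206). The gene with the lowest level in one tumour was thus the gene with the highest in the other. In CD45- cells Ccl2 led in both tumours, with 28.6 TPM in 66cl4 and 169.5 TPM in 67NR.

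As a share of the summed TPM of the 7 ligands, Ccl8 was 3.13 ± 1.03% in 66cl4 and 30.5 ± 10.0% in 67NR CD45+ cells (SD, n = 5). Ccl5 was 4.91 ± 2.04% and 13.5 ± 5.66%. The shares of Ccl3 (22.5 ± 7.18% against 8.47 ± 2.29%) and Ccl2 (18.02 ± 1.87% against 7.71 ± 1.55%) were larger in 66cl4, and Ccl12 held 25.4 ± 3.51% and 23.3 ± 5.60%. A share falls when another ligand rises, so these values are not independent of each other. The sum itself was 2837 ± 684 TPM in 66cl4 and 4863 ± 974 TPM in 67NR CD45+ cells, and 61.7 ± 38.6 TPM and 420.1 ± 99.9 TPM in CD45- cells. Ccl2 was the largest share of CD45- cells, with 50.9 ± 15.7% in 66cl4 and 41.7 ± 8.79% in 67NR tumours.

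**Figure D4:**
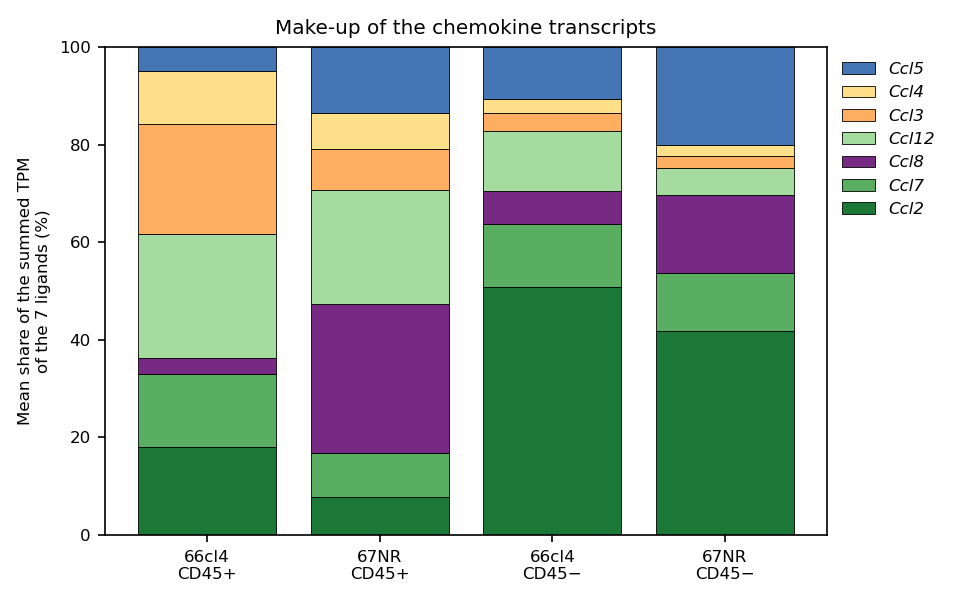
Mean share of each ligand gene in the summed TPM of the 7 ligands (%), for the 4 groups of 5 libraries. The band of Ccl8 is 3.13% in 66cl4 and 30.5% in 67NR CD45+ cells, and Ccl2 makes up the largest band of the CD45- groups.

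Of the other CC chemokines, 7 of 12 listed genes were tested in CD45+ cells, of which 3 were higher and 1 lower in 66cl4 (5.01% and 6.82% of all genes). Those higher were Ccl24, an eosinophil attractant (log2 fold change 2.66), and Ccl6 (2.09) and Ccl9 (1.98), whose products bind Ccr1. Ccl6 had a mean of 71250 normalised counts in 66cl4 and 16845 in 67NR CD45+ cells, and Ccl9 had 35353 and 9030. Their ranges did not overlap, with lowest 66cl4 values of 40369 for Ccl6 and 22596 for Ccl9 above highest 67NR values of 21361 and 11211. Ccl1, a ligand of Ccr8, was lower (-2.08) at means of 5.91 and 26.1. In CD45- cells 3 of 6 tested were lower, namely Ccl25 (-2.34), the eosinophil attractant Ccl11 (-2.32) and Ccl22 (-1.28).

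Of the other CC chemokine receptors, 1 of 7 tested was called in CD45+ cells by edgeR, Ccr7 of lymph node homing (log2 fold change 1.22), while DESeq2 called 3 and 5 had an unadjusted p under 0.05 in edgeR. Both atypical receptors tested in CD45+ cells were higher in 66cl4, the scavenger receptor Ackr3 (2.36) and Ccrl2 (1.08). In CD45- cells Ackr4, which removes Ccl19 and Ccl21, was the 1 of 3 tested that differed, with 222 to 242 normalised counts in the 66cl4 libraries and 0 to 1.56 in the 67NR libraries. Of the 11 genes of receptor signalling and trafficking 0 were called in CD45+ cells by edgeR and by DESeq2, and 3 had an unadjusted p under 0.05 in edgeR. In CD45- cells 4 were lower, including Rgs2 (-2.99) and Rgs1 (-2.04), which encode regulators of G-protein signalling, and Nup85 was higher (1.07).

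Most of the listed inducers and regulators of these chemokines were not called. In CD45+ cells, where 11.8% of all genes were called, 3 of 14 were lower in 66cl4, namely Ifng, the gene of interferon gamma (-3.08), Il34 (-2.91) and Csf2 (-1.90), and 2 were higher, Il1b (1.25) and Csf1 (1.12). In CD45- cells, where 32.2% of all genes were called, 4 of 13 tested were lower, namely Ifng (0 to 2.00 against 12.3 to 24.5 normalised counts), Il6 (log2 fold change -4.40), Tnf (-1.54) and Il34 (-1.36), and Csf1 was higher (1.72). Across the gates, 6 of 8 other CC chemokines tested, 3 of 7 other receptors and 2 of 3 atypical receptors had a tumour effect that was higher in CD45+ than in CD45- cells, as had 21.9% of all genes.

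The genes whose pattern over the 20 libraries was nearest to that of each member were found by the root mean square difference of log2 levels after centring each gene on its mean. For Ccl2 they were Rgs2 (0.355), Dusp5 (0.422) and Sqor (0.431), and for Ccl7 Rasgef1b (0.475), Plau (0.557) and Cd302 (0.567). Ccl12 lay nearest to Wfdc17 (0.346), C1qc (0.388) and Ctss (0.419), and Ccl3 to Fcer1g (0.352), Ccr1 (0.374) and Clec4n (0.387). For Ccl4 the nearest were Fcer1g (0.493), Tyrobp (0.539) and Ms4a6c (0.554). Ccr1 was nearest to Tlr13 (0.240), Igsf6 (0.322) and Cd86 (0.338), and Ccr2 to Cd52 (0.381), Ptprc (0.385) and Slfn1 (0.427). Ccl5 and Ccl8 had no gene as near as these. The closest to Ccl5 were Ly6c1 (0.637), Ifng (0.643) and Dnaaf3 (0.756), and the closest to Ccl8 were Ifng (0.946), Rnf144b (1.02) and Cfb (1.03). Ccl8 differed by 1.75 from its neighbour Ccl12 on this measure. The 20 points share animals and gates, so these distances describe the 4 groups more than 20 independent samples.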

How the data were processed

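RNA of CD45+ and CD45- cells was sequenced from 5 tumours of each line. The authors estimated counts per transcript with Salmon 1.3.0, aggregated them per gene with tximport and deposited the resulting estimated counts of 20 libraries, unnormalised. The methods name a human reference, whereas the identifiers are those of mouse, and 51492 of 52783 matched a symbol. The mouse build is not given in the sources used here, so coordinates are those of RefSeq promoters alone. Counts were rounded to whole numbers. Comparisons used edgeR 4.0.16 in R 4.3.3 (robust quasi-likelihood fit, TMM factors, its own filter at a count of 10 and a total of 15), with Benjamini-Hochberg adjustment over all genes tested. Size factors came from DESeq2 1.42.0. TPM used the median transcript length of a mouse annotation. Permutation tests were exact, with scipy 1.17.1, and figures used matplotlib 3.10.9. The statistical scripts were tested on simulated data. Libraries of a tumour with the same number in their titles were taken as 1 animal. Their deviations from the group means correlated at 0.0245 to 0.124 (66cl4 tumours) and -0.00143 to 0.303 (67NR tumours). The CD45- library of the same number correlated best for the CD45+ libraries of 66cl4 animals 5 and 6 and 67NR animals 1 and 6. For the other CD45+ libraries another number correlated better. Between tumours the numbers are only labels. No library was alike to another within sampling noise. The members and gene lists were chosen with earlier results of these data known. Named genes were the members, Ptprc, up to 4 called genes of a list with the largest absolute fold change and the 3 genes nearest to each member. Alternatives were DESeq2's test, RLE factors, other filters, the replicate number as a block, a fit of all 20 libraries, and omission of single libraries or of 66cl4 animals 5 and 6.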

Additional observations from a re-analysis of the deposited data

Results flagged for a closer look

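In 36 groups of 5 libraries, 3 held a value far from the other 4, judged by its gap to the nearest value relative to the range. These were Ccl7 in 66cl4 CD45- cells of animal 5 (305.5 normalised counts, the others 41.1 to 88.8), Ccl8 in 67NR CD45- cells of animal 4 (1742, the others 230.1 to 626) and Ccl5 in 66cl4 CD45+ cells of animal 4 (1711, the others 1290 to 1349). The nominal rate of the rule gives about 1.8 for independent, normally distributed values. Counts need not be so distributed, and the groups share libraries across genes, so this number is only a rough guide.

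The tumour effect differed between the gates, by the interaction test of edgeR, for Ccl2 (3.15 on the log2 scale), Ccl7 (2.54), Ccl3 (2.58), Ccl4 (2.09), Ccl5 (1.64), Ccr1 (2.43) and Ccr2 (1.87), each as the effect in CD45+ minus that in CD45- cells. Of all 16453 genes tested, 43.1% passed and 21.9% passed in this direction, and Ptprc passed as well.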

How the results depend on the processing

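The number of the 9 genes called kept within 1.5 times of its value in every comparison under the alternatives run. It was 2 in CD45+ cells and 9 in each comparison of gates under all settings, 5 to 9 in CD45- cells, and 5 to 8 for the interaction. Signs turned only for log2 values that had not passed. In CD45+ cells Ccl7 was -0.46 without 66cl4 animals 5 and 6. Omission of single libraries gave -0.24 to 0.19 for Ccl7, -0.36 to 0.049 for Ccl4 and -0.19 to 0.038 for Ccr2. The interaction of Ccl8 was 0.34 without animals 5 and 6 and -0.96 to 0.25 with each library left out. In CD45- cells, by adjusted p, Ccl3 (0.0545) and Ccl4 (0.0507) were not called without a filter on low counts, and Ccr1 was called with DESeq2 (0.0282) and with all 20 libraries in the fit (0.00733). The interaction of Ccl4 did not pass without a filter (0.0909) or when any of 7 libraries was left out (0.0524 to 0.0578), those being 66cl4 CD45+ animals 5 and 6, 66cl4 CD45- animals 3, 4 and 6, and 67NR CD45- animals 4 and 5. That of Ccr2 did not pass without a filter (0.0567) or without animals 5 and 6 (0.0526), and that of Ccl12 passed without the CD45- library of 66cl4 animal 5 (1.70, adjusted p = 0.0184). The cause was not tested.

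With the replicate number as a block, the genes called in CD45+ cells were 1340 in place of 1736, with 2 of the 9 in both fits, and those in CD45- cells 4766 in place of 4774, with 6 in place of 7, since Ccr2 did not pass (adjusted p = 0.0897). Between tumours these numbers are labels, with correlations of deviations of 0.000474 to 0.0705 in CD45+ and -0.124 to 0.0165 in CD45- cells. Within tumours, where the number is taken as the animal, the block changed no call of the 9 genes, nor did it in the interaction.

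Neighbouring pairs of groups that differed went from 18 of 27 to 0 without 66cl4 animals 5 and 6, where 3 libraries against 5 allow an exact permutation p of 0.0357 at the smallest. With each library left out 15 to 19 pairs differed. By normalised counts in place of TPM, 3, 0, 1 and 3 of the 9 genes kept their place in the order by level in 66cl4 CD45+, 67NR CD45+, 66cl4 CD45- and 67NR CD45- cells. Depth limits the low CD45- values, such as those of Ccl4, which had as few as 4 counts in a library.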
